A study of Homo sapiens with 9 samples.

Results

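RNF4 was followed across tumour libraries as 1 gene, identified by its Ensembl row (ENSG00000063978.11) among the 57820 gene rows of the deposited count table. The tumours were xenografts grown in immunocompromised nude mice from A375, an established human melanoma cell line that carries mutant BRAF. 3 groups of 3 libraries were compared: cells with a doxycycline (Dox) inducible RNF4 construct and no Dox, the same construct with Dox, and a construct for the RING mutant C159A (also called RNF4RM) with Dox. Mice drank water with Dox from day 3 after injection, and tumours were taken at day 30. RNA of 2 tumours was pooled for each library, so that 6 tumours stood behind a group.

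The series text names tumours that express GFP as controls. The titles of the control libraries name the RNF4 construct and no Dox, and the titles were followed. The groups do not include Dox-treated tumours without an RNF4 construct, so the drug and the induced construct cannot be told apart. The labels do not say whether a line was 1 clone or a pool of cells, nor which bases of the RNF4 transcript the constructs hold. Libraries are named by their column numbers: the RNF4 libraries without Dox are T1, T4 and T12, those with Dox are T2, T5 and T13, and the libraries labelled RING mutant with Dox are T3, T6 and T14. The numbers run in 3 stretches (T1 to T3, then T4 to T6, and T12 to T14) that each hold 1 library of every group. P-values measure the spread between these pools, and in bulk tissue fewer expressing cells and less RNA per cell cannot be told apart.

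RNF4 is a ubiquitin ligase that recognises proteins carrying chains of SUMO, a small protein related to ubiquitin, through SUMO-interacting motifs in its N-terminal part. Its C-terminal RING finger, folded around zinc ions held by cysteines and a histidine, pairs with that of a second RNF4 molecule and recruits a ubiquitin-loaded E2 enzyme. Modified targets such as the nuclear body protein PML are then sent to the proteasome or extracted from chromatin. Loss of a zinc-binding cysteine disrupts the RING finger and with it the ligase activity.

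The stretch that the mutant construct alters is shown because it is the designed difference between the constructs. In transcript RNF4-201 of GENCODE 29 (3088 bases, 570 coding bases, 190 codons), a search of the translation for the RING pattern of 8 cysteines and histidines placed it at codons 132 to 176. Codon 159, given in capitals, encodes cysteine as the mutant's name requires, and lies at chr4:2513721-2513723 (GRCh38, plus strand) in the last of 8 exons. The second line gives the same stretch of a processed RNF4 copy on chromosome 1, with the bases that differ from RNF4 in capitals.

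RNF4, RING codons 132 to 176: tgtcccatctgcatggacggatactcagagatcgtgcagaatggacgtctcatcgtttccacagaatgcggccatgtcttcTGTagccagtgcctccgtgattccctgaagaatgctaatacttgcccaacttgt

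AL732414.1, the same codons: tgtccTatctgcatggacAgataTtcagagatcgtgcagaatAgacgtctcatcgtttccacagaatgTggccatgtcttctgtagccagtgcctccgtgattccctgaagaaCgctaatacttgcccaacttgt

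The gene counts hold no base calls. Wild-type transcripts, C159A transcripts and transcripts of the cells' own RNF4 gene therefore enter 1 count and cannot be told apart here. Whether reads from the Rnf4 gene of the mouse host also enter this count was not tested.

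Between 16416426 and 28934692 reads were counted per library. The share of 85 ribosomal protein genes was 6.52% to 9.73% in 7 libraries, and higher in T2 (16.1%) and T1 (26.0%). The melanocyte lineage factor SOX10 was present in all 9 libraries at 39.0 to 80.9 CPM (counts per 1000000 of the library size after TMM scaling), MITF at 10.6 to 22.1 CPM and the melanoma surface protein CSPG4 at 146 to 394 CPM, whereas TYR and DCT, 2 of the 11 melanoma markers, did not reach the count filter. The pigment genes MLANA, PMEL and TYRP1 passed it at low levels, with MLANA at 0.74 to 1.88 CPM. Outside T14 PMEL was at 0.74 to 2.04 CPM and TYRP1 at 0.21 to 0.91 CPM, and in T14 they stood at 10.2 and 8.13 CPM. SOX10 was at 58.5, 66.4 and 69.6 CPM in the control libraries T1, T4 and T12 and at 39.0, 54.9 and 45.6 CPM in the induced RNF4 libraries T2, T5 and T13, with no overlap (log2 change of -0.48 ± 0.23, edgeR unadjusted p = 0.0604, adjusted p = 1.0). TYRP1 did not overlap either, but it was higher with RNF4 and Dox. It was at 0.21 (T1), 0.35 (T4) and 0.24 CPM (T12), and at 0.91 (T2), 0.40 (T5) and 0.79 CPM (T13). Of the 9 melanoma markers that passed the filter, 1 was thus apart in each direction. Over all genes 0.875% were apart upward and 1.44% downward. The part of SOX10 and TYRP1 in the results on RNF4 was not tested. Of 8 skeletal muscle markers, which surrounding host tissue can bring, 7 passed the filter, and their summed level ran from 12.8 to 194 CPM with RNF4 and Dox, 13.8 to 37.1 CPM without Dox and 19.1 to 713 CPM in the libraries labelled RING mutant.

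In every tumour pool with the RNF4 construct and Dox, RNF4 stood at about 10 times its mean level without Dox, and it was split within the libraries labelled RING mutant: 1 had the highest RNF4 of all 9 and 2 were near the level without Dox. RNF4 without Dox gave 488 reads in T1, 1621 in T4 and 1099 in T12, which are 33.4, 52.0 and 43.2 CPM. With RNF4 and Dox it gave 7946 reads in T2, 9219 in T5 and 10988 in T13, or 380, 413 and 454 CPM. The groups did not overlap. The lowest library with Dox stood at 8.87 times the mean without Dox.

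In the libraries labelled RING mutant RNF4 gave 794 reads in T3, 12786 in T6 and 1118 in T14, or 47.0, 559 and 63.5 CPM. T3 lay inside the range without Dox. T14 lay at 1.22 times the highest library without Dox, with an excess over the mean without Dox of 20.7 CPM, or 2.22 SDs of that group. T6 was 1.34 times the mean of RNF4 with Dox, 11.9 times T3 and 8.80 times T14. The label thus covers libraries at both RNF4 levels, and statements on the RING mutant below refer to the label. The sample titles of this group state that the plasmid is expressed and its RNF4 inactive. RNF4 counts in T3 and T14 nevertheless stood near the level without Dox. Whether the construct was expressed in these libraries was not tested.

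Counting error is small against these differences. As unscaled CPM, raw counts over a library's own total, RNF4 had 24.2 in T1 (95% Wilson interval 22.2 to 26.5), 56.0 in T4 (53.4 to 58.8), 68.1 in T14 (64.2 to 72.2) and 601 in T6 (591 to 612), and the intervals cover counting error only. The interval of T14 did not reach that of T4, and those of T1 and T4 were also apart, within 1 group.

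**Figure D1:**
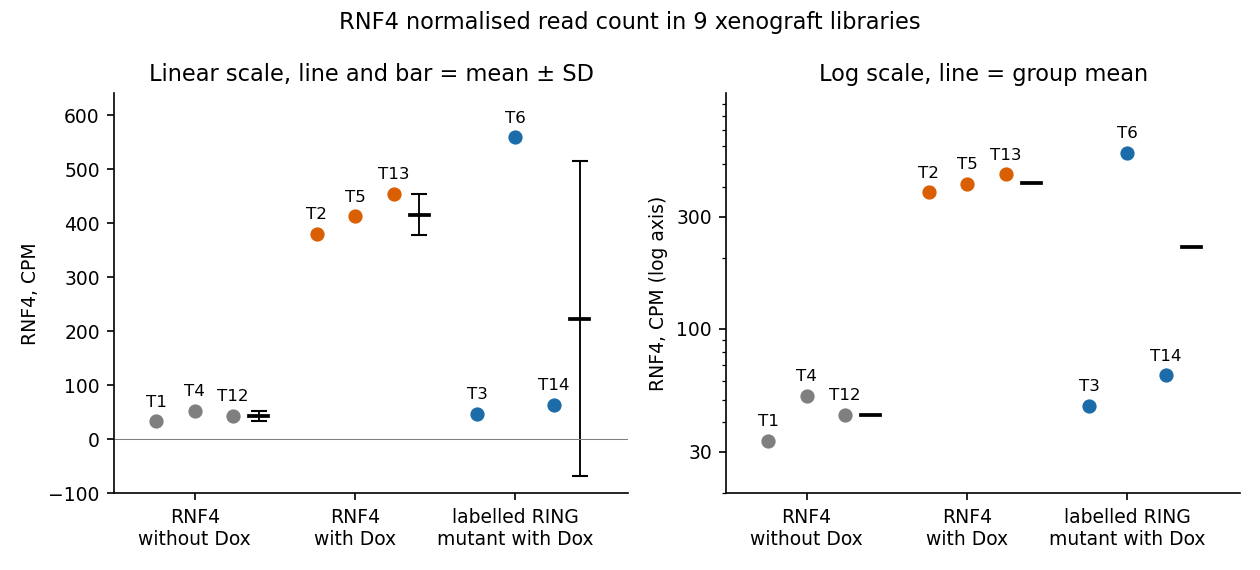
RNF4 in CPM in each of 9 libraries, by group, on a linear axis with the group mean and SD (left) and on a log axis with the group mean (right). T6 stands at 559 CPM, above the 3 libraries of RNF4 with Dox (380 to 454 CPM), while T3 and T14, which carry the same label as T6, stand at 47.0 and 63.5 CPM.

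The order of the 9 libraries by RNF4 was T6, T13, T5, T2, T14, T4, T3, T12 and T1. Neighbours in this order differed little except at 1 place: the lowest of the upper 4 libraries was 5.98 times the highest of the lower 5. T2 and T14 stood on either side of that gap. RNF4 ranked above 66.9% of the 18618 expressed genes in T1 and above 99.1% in T6, and with RNF4 and Dox above 98.0% to 98.7%.

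Group means were 42.9 ± 9.32 CPM (SD, n = 3) without Dox, 416 ± 37.2 CPM with RNF4 and Dox and 223 ± 291 CPM for the RING mutant label. The coefficient of variation was 21.8% without Dox, 8.95% with RNF4 and Dox and 130% under the mutant label. The induced RNF4 pools lay closest together on this scale, and the difference in spread was not tested. T1, with the largest ribosomal protein share, had the least RNF4 of its group, and T2, with the second largest, the least of its own. T5, with the lowest muscle marker level of all 9 libraries, had 413 CPM of RNF4, and T14, with the highest, had 63.5. After T14 the muscle marker level was highest in T13 (194 CPM) and T2 (98.0 CPM), which had 454 and 380 CPM of RNF4. The r of the 7 muscle markers with RNF4 ran from 0.08 to 0.19. All 7 had a higher fitted level with RNF4 and Dox than without (log2 change of 1.77 to 2.82). Of these, 0 had an edgeR unadjusted p under 0.05, beside 0.596% of all genes. For the other host markers r ran from -0.63 to 0.002 (leukocytes) and -0.20 to 0.30 (fibroblasts). It ran from -0.18 to 0.28 for endothelium and 0.06 to 0.16 for epidermis. The part of host tissue in the RNF4 values was not tested.

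Within each stretch of column numbers RNF4 with Dox was 11.4, 7.94 and 10.5 times the library without Dox. The same ratio for the library labelled RING mutant was 1.41, 10.7 and 1.47. The induced RNF4 libraries were high in all 3 stretches, and the mutant label was high in 1.

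Per kilobase of exon (7.27 kb when all annotated exons are joined) RNF4 stood at 5.90 CPM without Dox, 57.2 CPM with RNF4 and Dox and 76.9 CPM in T6. RNF111, the other SUMO-targeted ubiquitin ligase of human cells, stood at 6.08 CPM per kilobase without Dox and 6.0 with RNF4 and Dox. With joined exons as the length, RNF4 was therefore near its fellow ligase without Dox and far above it with Dox. The joined exons of RNF4 are longer than transcript RNF4-201 (3088 bases), and by that length its values would be higher. Transcript lengths were not used for either gene, so the nearness without Dox holds for joined exons only. If the constructs hold only part of the transcript, the value per kilobase is too low for the induced libraries.

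The comparison of induced with uninduced RNF4 tumours asks whether the construct was induced and what followed. The two-sided exact permutation test of RNF4 CPM gave p = 0.1, the smallest value that 3 against 3 libraries allow. In edgeR's quasi-likelihood fit of all 9 libraries the log2 change of RNF4 was 3.28 ± 0.84 (SE), with an unadjusted p of 0.00304 and a Benjamini-Hochberg adjusted p of 1.0. RNF4 ranked 7 by p and 13 by size of change among 18618 genes, and it did not pass the threshold. That fit called 0 genes in this comparison (0%), and at an unadjusted p under 0.05 it had 111 genes (0.596%). The likelihood ratio test of edgeR called 1 gene, DESeq2 called 3 and limma voom 0. The libraries of the compared groups did not overlap for 163 genes that were higher with Dox (0.875%), RNF4 among them, and for 269 that were lower (1.44%).

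The size of the change hardly moved between fits, whereas its error did. The dispersion that edgeR gave RNF4, the squared variation between libraries beyond counting error, was 0.399 over all 9 libraries, higher than for 93.9% of genes. Over the 6 libraries of RNF4 with and without Dox it was 0.0772, higher than for 20.7% of genes, and over 8 libraries without T6 it was 0.0651, higher than for 16.2%. RNF4 thus had a dispersion above most genes with T6 in the fit and below most genes without it.

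Without T6 the log2 change of RNF4 was 3.28 ± 0.27 with an edgeR adjusted p of 0.0183, and RNF4 was the 1 gene called. With the 6 compared libraries alone it was 3.28 ± 0.29 with an adjusted p of 0.0877. A term for the stretches of column numbers, added after seeing the data, gave those 6 libraries an adjusted p of 0.000476, and RNF4, UNC5C and UNC5C-AS1 were called. Without a filter on low counts the 9-library fit also called RNF4 (adjusted p of 0.000484), again with UNC5C and UNC5C-AS1. DESeq2 returned no p for RNF4, because the Cook's distance of T6 was 14.2 against a cutoff of 9.78, and with that rule off its adjusted p was 0.0295. Without T1 and T2 the log2 change was 3.19 ± 1.05, so the change was about as large without the libraries rich in ribosomal protein counts. Over all 9 libraries the term for stretches gave 3.38 ± 0.68, and RNF4 was not called. Nor was RNF4 called by the likelihood ratio test of edgeR (adjusted p = 0.260) or by limma voom.

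In the authors' deposited table for this comparison RNF4 had a log2 change of 3.275 and an adjusted p of 0.0132. The authors' list of genes for it holds RNF4 with UNC5C-AS1 (log2 change of 5.887) and UNC5C (4.171). The authors' deposited table gives RNF4 a tagwise dispersion of 0.292 and a trended one of 0.111, a ratio of 2.63. Which tool made the authors' fold changes and adjusted p-values is not given in the sources used here: the submitters' processing notes name DESeq2, and the table's dispersion columns are named as edgeR names them. Of 16002 genes with a p there, 93.4% had a lower tagwise dispersion.

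For the RING mutant label against RNF4 without Dox, the log2 change of RNF4 was 2.38 ± 0.81 (edgeR unadjusted p = 0.0149, adjusted p = 1.0, rank 107), and the exact permutation p was 0.2. The groups overlapped, since T3 lay inside the range without Dox. The fit called 0 genes (0%), with 325 at an unadjusted p under 0.05 (1.75%), and DESeq2 called 6, the likelihood ratio test 5 and limma voom 0. Without T6 the RNF4 change fell to 0.36 ± 0.28, and without T3 or T14 it was 2.86 ± 0.70 or 2.82 ± 0.76. limma voom, which averages log values, gave 1.46 ± 0.74. The authors' deposited table has a log2 change of 2.376 with an adjusted p of 0.137 for RNF4.

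For RNF4 with Dox against the RING mutant label, which addresses the catalytic activity where both constructs are expressed, RNF4 differed by 0.90 ± 0.77 (edgeR unadjusted p = 0.273, adjusted p = 1.0, rank 2057), with an exact permutation p of 0.4. T6 lay above all 3 libraries of RNF4 with Dox, and T3 and T14 below them. The fit called 0 genes (0%), with 251 at an unadjusted p under 0.05 (1.35%), and DESeq2 called 0, the likelihood ratio test 3 and limma voom 0. Without T6 the RNF4 difference was 2.91 ± 0.32 (edgeR adjusted p = 0.162). The authors' deposited table has a log2 change of 0.899 with an adjusted p of 0.9999. The 3 comparisons share libraries, so their RNF4 values are not independent.

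**Figure D2:**
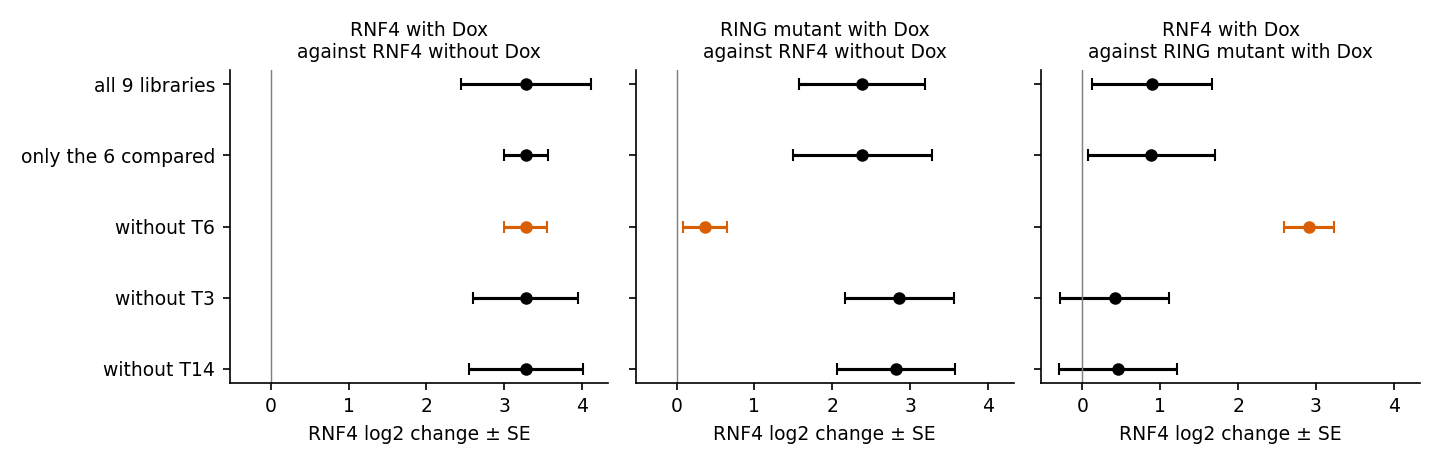
Fitted log2 change of RNF4 with its standard error (horizontal axis) in the 3 comparisons, from edgeR fits of all 9 libraries, of the 6 compared, and of 8 libraries without T6 (orange), T3 or T14. Without T6 the change stays at 3.28 for RNF4 with Dox against no Dox with a smaller error, falls to 0.36 for the mutant label against no Dox, and rises to 2.91 between the groups with Dox.

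The processed copy AL732414.1 (ENSG00000227934, chr1:231021611-231022183, plus strand, GRCh38, GENCODE 29) spans the whole RNF4 coding sequence with its stop codon. It has 573 bases, of which 27 differ from RNF4 (95.3% identical), and 6 of the 135 bases of the RING stretch differ, codon 159 not among them. Of the 521 windows of 50 bases, the read length, in the RNF4 coding sequence, 36 (6.91%) also occur in the copy. Over the whole RNF4-201 transcript 36 of 3039 windows (1.19%) do, and no window occurs in any other gene of the human annotation. Mouse genes were not searched. No gene carries a symbol of the form RNF4P with a number, so the copy was found by sequence, after the values of RNF4 had been seen.

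The copy was counted 8, 17 and 17 times in T1, T4 and T12, 23, 25 and 42 times in T2, T5 and T13, and 1, 37 and 15 times in T3, T6 and T14. Its reads were 0.126% to 1.64% of those of RNF4 in the same library. The 4 libraries with the highest CPM of the copy were T13, T6, T5 and T2, those with the most RNF4. The fitted log2 change of the copy was 1.16 ± 0.74 (edgeR unadjusted p = 0.150, adjusted p = 1.0), and its r with RNF4 was 0.72, rank 35 of all genes. Whether these reads came from the copy or from RNF4 was not tested.

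RNF4 lies on chromosome 4 at 2462220 to 2625320 (plus strand, GENCODE 29), and its annotated span overlaps the start of FAM193A on the same strand. Of the 4 nearest measured protein-coding genes on each side, MXD4, a MAX partner that opposes MYC, had a log2 change of -0.37 ± 0.21 with RNF4 and Dox against no Dox. FAM193A was at 21.9, 30.3 and 33.3 CPM in the libraries without Dox and at 20.8, 32.4 and 28.7 CPM with RNF4 and Dox, with a log2 change of -0.06 ± 0.23. Its groups overlapped. The other neighbours were POLN (a DNA polymerase, -0.02 ± 0.48), HAUS3 (an augmin subunit of the spindle, 0.03 ± 0.21), ZFYVE28 (-0.11 ± 0.27), TNIP2 (an NF-kappa-B regulator, 0.02 ± 0.22), SH3BP2 (a signalling adaptor, -0.07 ± 0.32) and the actin-spectrin linker ADD1 (-0.02 ± 0.32).

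0 of these 8 neighbours passed the edgeR threshold, beside 0% of all genes, and 0 had an unadjusted p under 0.05, beside 0.596%, so these counts do not set the neighbours apart. Their median log2 change was -0.04 beside -0.03 over all genes. Their r with RNF4 over the 9 libraries ran from -0.39 to 0.10. Of the genes that overlap RNF4 and did not pass the filter, CFAP99 had 1, 2 and 1 counts in T1, T4 and T12 and 0 in the other 6 libraries, and the antisense pseudogene ENSG00000251229 had 0 to 16.

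RNF4 varied more across the libraries than 99.4% of the expressed genes, with an SD of log2 CPM of 1.74 against a median of 0.41, and 114 genes varied more. Genes were ordered by their likeness to it, the Pearson r of log2 CPM over 9 libraries. These values are a description: the libraries share groups, stretches of column numbers and depth, and RNF4 takes 2 levels with a gap between them. The highest r was 0.824 and 5 genes were above 0.8, whereas the median gene had a closest match of 0.977 and 650 genes above 0.8. Not 1 of the 18618 genes had a lower closest match than RNF4, nor did any of the 962 genes with an SD of log2 CPM of 1 or more.

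**Figure D3:**
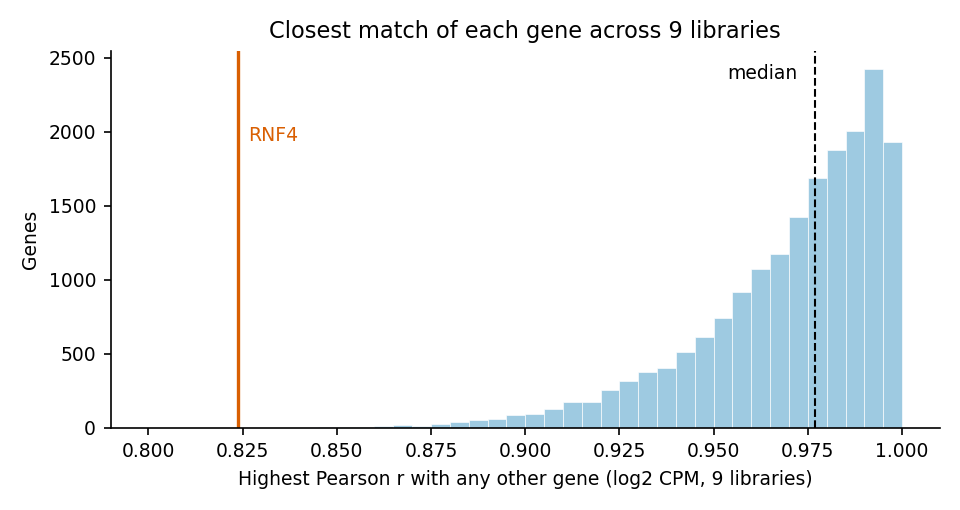
Number of genes (vertical axis) by the highest Pearson r that each of 18618 genes reaches with any other gene over 9 libraries. RNF4 (orange line) stands at 0.824, below every other gene, and the median (dashed) at 0.977.

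That place depended on single libraries. With T6 left out the closest match of RNF4 was 0.971 and 24.6% of genes had a lower one, and with T3 left out it was 0.958 and 12%. With each other library left out 0% to 4.07% of genes were lower, by Spearman ranks 2.56%, and for deviations within the stretches of column numbers 1.44%. RNF4 was also nearly unrelated to the main axes of variation, with r of -0.10, -0.02 and -0.04 with the first 3 principal components, the first of which carried 39.3% of the variance.

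The gene most like RNF4 was ZNF723, a zinc finger gene on chromosome 19 (r = 0.82). It was at 1.23, 1.38 and 1.57 CPM without Dox, 1.91, 2.82 and 1.82 CPM in the induced RNF4 libraries, and 1.01, 3.28 and 0.91 CPM in T3, T6 and T14. Like RNF4 it was highest in T6 and low in T3 and T14, but at 16 to 75 reads per library.

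CAVIN2, a caveolar coat protein, followed (r = 0.82) with 0.48, 0.87 and 0.20 CPM without Dox, 1.05, 1.70 and 3.68 CPM in the induced RNF4 libraries, and 0.53, 1.62 and 0.91 CPM in T3, T6 and T14. It kept the RNF4 order best by rank, with a Spearman rho of 0.93, and had a log2 change of 2.03 ± 0.68 with RNF4 and Dox (edgeR unadjusted p = 0.0137, adjusted p = 1.0).

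UNC5C-AS1 (r = 0.80) and UNC5C (r = 0.79) also share the authors' list with RNF4. UNC5C, a receptor of the axon guidance protein netrin, was at 0.21, 0.96 and 0.63 CPM without Dox and at 8.80, 10.7 and 14.1 CPM with RNF4 and Dox. In the libraries labelled RING mutant it stood at 5.10 (T3), 4.24 (T6) and 0.17 CPM (T14), so that it parted from RNF4 in T3, where RNF4 was near its level without Dox. Its antisense RNA had 0, 1 and 2 reads in T1, T4 and T12, 55, 46 and 87 in T2, T5 and T13, and 28, 32 and 0 in T3, T6 and T14. Without T3 its r with RNF4 was 0.96. Whether the counting used the strand is not given in the sources used here. Without strand, reads from a stretch that antisense genes share cannot be told apart. On chromosome 4 UNC5C is annotated at 95162504 to 95549206 and UNC5C-AS1 at 95549129 to 95552457, so they overlap only at their ends.

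LINC00471, a long non-coding RNA (r = 0.80), parted from RNF4 in the other library: it was at 0.77 to 0.94 CPM with RNF4 and Dox, 0.39 to 0.43 CPM without, and 0.48 CPM in T6, with 6 to 21 reads per library. Without T6 its r was 0.97. KCNT2, a sodium-activated potassium channel (r = 0.80), CREB3L4, a membrane-bound transcription factor (r = 0.80), and CCBE1, a secreted protein of lymphatic growth (r = 0.79), had their highest values in T6, as RNF4 did, at 11.5, 16.8 and 94.8 CPM. Their ranges over the 9 libraries were 2.36-fold, 1.33-fold and 2.22-fold, beside the 16.8-fold range of RNF4.

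ABHD17C, a protein depalmitoylase, was most opposite to RNF4 (r = -0.88), at 15.1 to 17.5 CPM in the 4 libraries with high RNF4 and 18.0 to 21.3 CPM in the other 5. SHC4, a signalling adaptor (r = -0.87), was at 3.36 to 4.24 CPM and 5.34 to 12.2 CPM. CNRIP1, which binds a cannabinoid receptor (r = -0.87), was at 16.9 to 18.1 CPM and 19.0 to 20.7 CPM. SYTL5, a vesicle transport protein (r = -0.87), was at 26.2 to 37.8 CPM and 45.9 to 58.1 CPM. All 4 kept the RNF4 split with no overlap, but with gaps far smaller than that of RNF4.

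**Figure D4:**
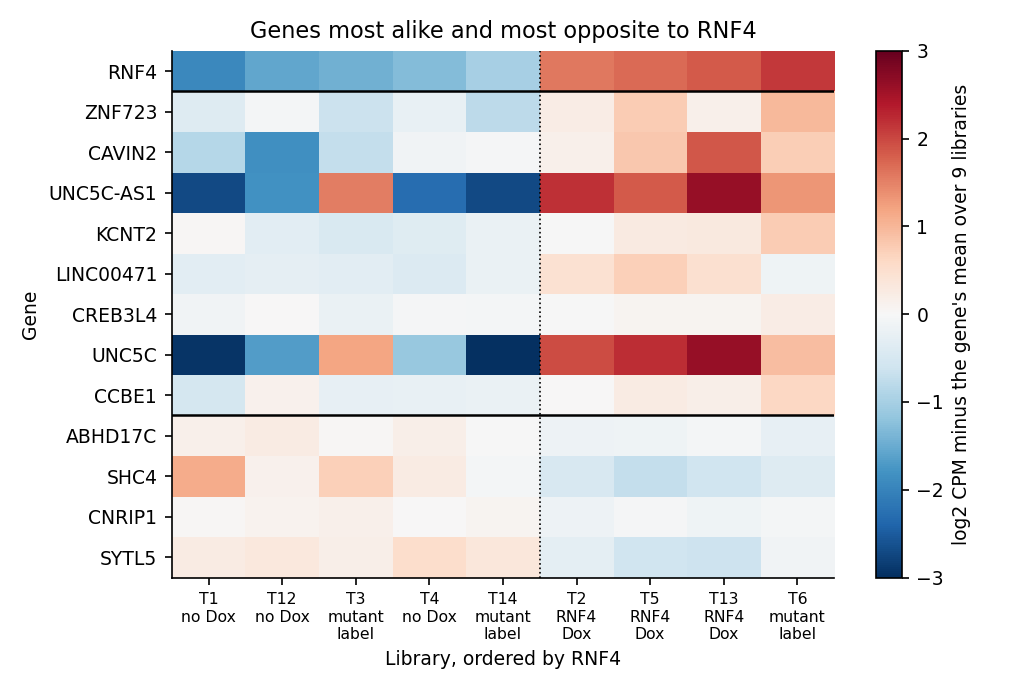
Log2 CPM minus each gene's mean over 9 libraries (colour) for RNF4, the 8 genes most like it and the 4 most opposite to it (rows), with libraries ordered by RNF4 (columns) and a dotted line at its gap. UNC5C and UNC5C-AS1 are high in T3, to the left of the gap, and LINC00471 is near its mean in T6, to the right of it.

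Of the 18618 expressed genes, 19 (0.102%) had the same 4 libraries as RNF4 on top, RNF4 among them, and 38 (0.204%) had those 4 at the bottom. The split was taken from the order of RNF4 and cut at its own gap, so that RNF4 leads here was fixed in advance. No other gene had a gap over 2-fold between the 4 and the other 5. The second largest gap among the genes with those 4 on top was 1.29-fold, for the RNF4 copy on chromosome 1, and the largest in the other direction was 1.47-fold, for SOAT2, a sterol acyltransferase. These were singled out after their values had been seen.

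Genes that load and remove SUMO shape the signal RNF4 reads, and 20 of 21 passed the filter (SUMO4 did not). With RNF4 and Dox against no Dox, 11 were above and 9 below 0, with a median log2 change of 0.03 beside -0.03 over all genes. edgeR called 0, beside 0% of all genes, and 0 had an unadjusted p under 0.05, beside 0.596%. This and the 3 lists that follow are at the background in both counts, and nothing is read from them. They ran from -0.36 ± 0.68 for the SUMO ligase NSMCE2 to 0.20 ± 0.21 for PIAS1. The SUMO ligase PIAS2 had 0.13 ± 0.20 and SAE1, a subunit of the activating enzyme, 0.19 ± 0.30.

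The ubiquitin partners of RNF4 (E1 and E2 enzymes, the second SUMO-targeted ligase, deubiquitinases and the VCP segregase) were all measured, 14 of 14, with 2 above and 12 below 0 and a median of -0.05. 0 were called (0% of all genes) and 0 had an unadjusted p under 0.05 (0.596% of all genes). RNF111 was at 43.4, 44.3 and 43.3 CPM without Dox, against 40.7, 45.2 and 43.3 CPM in the induced RNF4 libraries, a log2 change of -0.02 ± 0.15. UFD1, a VCP cofactor, had -0.19 ± 0.29, TOPORS, a ligase for ubiquitin and SUMO, -0.09 ± 0.18, UBE2N, an E2 for lysine 63 chains, -0.17 ± 0.49, and the deubiquitinase USP7 0.10 ± 0.31. Their r with RNF4 ran from -0.30 to 0.12.

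For proteins that RNF4 acts on in earlier work, the transcripts were also measured, 16 of 16, with 7 above and 9 below 0, a median of -0.01, 0 called (0% of all genes) and 0 with an unadjusted p under 0.05 (0.596% of all genes). PML was at 62.6, 109 and 112 CPM without Dox, at 72.4, 121 and 102 CPM with RNF4 and Dox, and at 120, 108 and 119 CPM under the mutant label, with a log2 change of 0.06 ± 0.27 and overlapping groups. MDC1, a DNA damage mediator, had -0.37 ± 0.39, FANCI of the Fanconi pathway 0.08 ± 0.17, and the transcription factors JUN and MYC 0.13 ± 0.29 and 0.10 ± 0.22. These are transcript levels, and RNF4 acts on proteins, which were not measured. The 3 genes that DESeq2 called in this comparison, UNC5C, UNC5C-AS1 and ITGA1, are in none of these lists.

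The other genes named RNF with a number include the SUMO-targeted ligase RNF111. Most of the rest carry a RING finger and are not known as SUMO-targeted ligases. Of these other RNF genes, 64 of 75 passed the filter. 25 were above and 39 below 0, with a median of -0.03, 0 called (0% of all genes) and 0 with an unadjusted p under 0.05 (0.596% of all genes). The lowest were RNF43, a Wnt pathway ligase (-0.63 ± 0.85), RNF224 (-0.48 ± 0.67) and RNF182 (-0.37 ± 0.21), and the highest RNF112 (0.33 ± 0.46), RNF126 (0.19 ± 0.19) and RNF135 (0.17 ± 0.24). For RNF43 the value was 0.91 without T4 (2.98 CPM) and -1.78 without T2 (1.82 CPM), while its other 7 libraries were at 0.27 to 0.50 CPM. RNF4, at 3.28 ± 0.84, lay outside the range of these 64, and the other 11 have no fitted value.

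**Figure D5:**
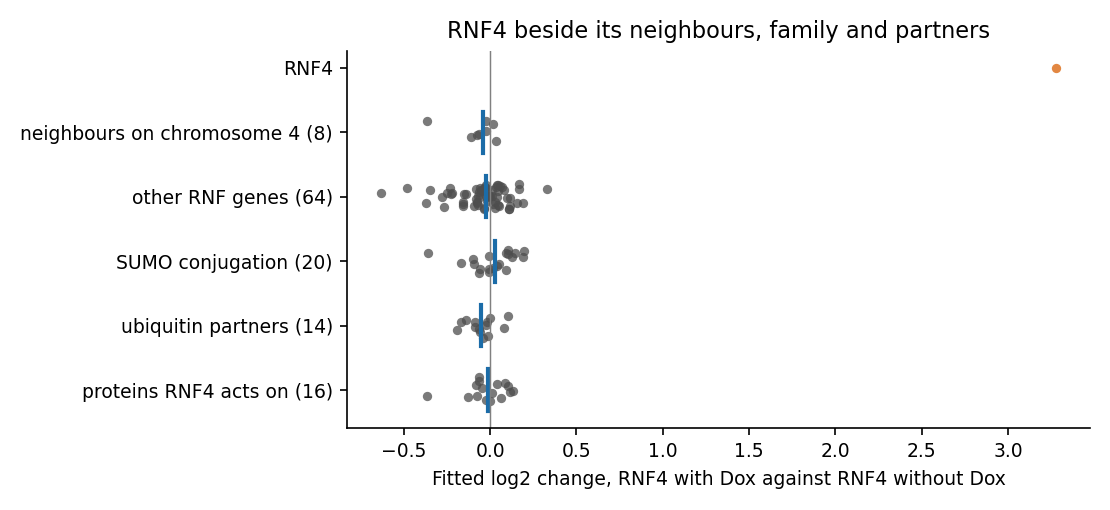
Fitted log2 change with RNF4 and Dox against no Dox (horizontal axis) for RNF4, its 8 neighbours and the members of 4 gene lists that passed the filter (points, with blue bars at the medians and the number of genes in brackets). RNF4 stands at 3.28 and every other gene shown lies between -0.63 and 0.33.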

How the data were processed

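The authors deposited 3 tables of raw read counts per gene in 9 libraries, with log2 fold changes, p-values and dispersions, and a list of genes higher with RNF4 and Dox. Per the submitters' processing notes, the tools named are TopHat2 2.0.13, HTSeq 0.6.0 and DESeq2 1.10.1, with GRCh38. The authors' dispersions are treated as a score, and 27 columns of normalised values were not used. Per the labels, 800 ng of RNA went into strand-specific poly(A) libraries read as single 50-base reads. Column names give the group but not the sample.

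Counts were fitted with edgeR 4.0.16 in R 4.3.3 (filterByExpr, TMM, 1 mean per group, quasi-likelihood test), which kept 18618 genes. An adjusted p (Benjamini-Hochberg over these genes) under 0.05 is a call, and an SE is the log2 change over the square root of F. Likeness used log2 CPM with a prior count of 2. limma 3.58.1, DESeq2 1.42.0 and other filters and subsets were alternatives. The fit was tested on simulated data without an outlying library, so that test does not cover the dispersion of RNF4 with T6. Sequences and coordinates are from GENCODE 29. Named were the 8 genes most like RNF4, the 4 most opposite, 4 neighbours on each side, the authors' listed genes, 4 members per list by the smallest p with PML and RNF111, and 3 RNF genes at each end. A named list member is not reported here. RNF4 and the lists were chosen with earlier results of these data known.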

Additional observations from a re-analysis of the deposited data

How the results depend on the processing

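The log2 change of RNF4 was above 0 in all 19 alternatives that gave a p, in each comparison. With RNF4 and Dox against no Dox it ran from 3.13 to 3.44 when single libraries were left out, and 4 alternatives passed the threshold: 3.27 without a count filter, 3.30 with the 6 libraries and a term for stretches of column numbers, 3.28 by DESeq2 without its outlier rule, and 3.28 without T6. For the mutant label against no Dox 1 did, 2.40 without a count filter. Left out singly, libraries moved this change from 0.36 to 2.86 and that between the groups with Dox from 0.41 to 2.91. The middle 2 of those 4 alternatives were added after seeing the data.

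Genes called with RNF4 and Dox against no Dox numbered 0, and 1 by the likelihood ratio test, 3 without a count filter, 3 with the 6 libraries and stretches, 3 by DESeq2, 4 by DESeq2 without its outlier rule, and 0 to 1 with single libraries left out. For the mutant label against no Dox these settings gave 5, 109, 1, 6 and 3, and 1 without T1 and T2. Between the groups with Dox the likelihood ratio test gave 3 and no filter 38.

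The closest match of RNF4, 0.82, was 0.93 by Spearman rho, 0.95 within stretches, 0.86 to 0.97 without single libraries and 0.97 without T6 and T13, which lie farthest from its median. Of the 8 most alike genes, 0 to 3 stayed among the 8 with a library left out, 1 by Spearman rho and 0 within stretches.

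Several uncalled changes turned sign. Over fits without single libraries ADD1 ran from -0.31 to 0.22, FAM193A -0.21 to 0.10, FANCI -0.036 to 0.16, HAUS3 -0.077 to 0.17, JUN -0.092 to 0.42, MYC -0.027 to 0.33, PML -0.16 to 0.24, POLN -0.65 to 0.28, RNF111 -0.058 to 0.016, RNF135 -0.0051 to 0.35, RNF224 -0.88 to 0.093, RNF43 -1.78 to 0.91, SAE1 -0.055 to 0.52, SH3BP2 -0.28 to 0.27, TNIP2 -0.12 to 0.19, UBE2N -0.66 to 0.64, UFD1 -0.47 to 0.18, USP7 -0.16 to 0.32 and ZFYVE28 -0.21 to 0.089. Without T1 and T2 FANCI was -0.035, MYC -0.10, RNF111 0.015, UBE2N 0.14 and ZFYVE28 0.044. ADD1 was 0.069 by limma voom, 0.0084 with stretches and 0.042 with stretches and 6 libraries.

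No paired analysis was possible because the replicate numbers of the titles could not be tied to columns, whose numbers stand in no title. The term for stretches compares libraries with neighbouring column numbers, and no label says that these mark pairs. The cause of these shifts was not tested. With 3 pools a group, and 2 of the 3 under the mutant label near the level without Dox, an effect of the mutant could not be measured apart from the label.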
